A study of Mus musculus with 24 samples.

Results

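The genes described here are the axonemal dynein heavy chains, named Dnah and a number, and the cilia and flagella associated proteins, named Cfap and a number. The rule takes them from the count table by symbol, and 44 of the 55450 genes of the table carried such a name: 15 Dnah genes and 29 Cfap genes. RNA had been sequenced from liver, cerebellum and testes of WT mice and of mice without Thumpd1, with 4 libraries in each of the 6 groups, 24 in all. Thumpd1 is the adapter protein with which the acetyltransferase Nat10 places N4-acetylcytidine on serine and leucine tRNAs. WT and KO mice were C57BL/6N, 6 to 12 weeks old, of either sex and age-matched littermates, and shared every other condition named in the labels. The KO allele was made in C57BL/6N eggs with CRISPR-Cas9 guides that cut in the first and the fourth exon of Thumpd1, and the line was backcrossed on C57BL/6, so that the gene is missing in every cell and no tissue-restricted promoter is involved. In every tissue the numbers 1 to 4 stand for WT and 5 to 8 for KO libraries, and the study calls the libraries of a group biological replicates, while nothing in the labels says which libraries came from which animals, so the p-values below measure the spread between these libraries.

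A motile cilium or sperm flagellum is built on an axoneme, a ring of doublet microtubules around a central pair. Dynein motors stand on the doublets in outer and inner rows, called arms, and each arm is named for its heavy chain, the subunit that burns ATP. Dnah5, Dnah9 and Dnah11 are outer arm heavy chains of motile cilia such as those of the airway, and Dnah8 and Dnah17 are the corresponding chains of the sperm flagellum. Dnah2 and Dnah10 together form the dimeric inner arm, and the other Dnah proteins form monomeric inner arms. Cfap proteins tether the inner arms, build the central apparatus, line the inside of the doublets, or help to assemble the arms in the cytoplasm. Testis makes these proteins in quantity while spermatids grow their flagella. In the brain the multiciliated cells are the ependyma and the choroid plexus, whose cilia genes are switched on by the transcription factors Foxj1 and Rfx3. Most neurons bear a single cilium without motility.

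Depth was 16353797 to 37889615 counts per library. In the WT groups Thumpd1 stood at 9.74 counts per 1000000 library counts (CPM) in liver, 22.4 in cerebellum and 25.2 in testes, and in the KO groups at 0.0567, 0.0563 and 0.955 CPM, so every library matched its labelled genotype. The labelled tissues also matched their markers: summed hepatocyte markers reached 48066 CPM or more in every liver library, summed granule cell markers 5890 CPM or more in every cerebellum library and summed elongating spermatid markers 14623 CPM or more in every testis library. Within the cerebellum, libraries with neighbouring numbers (1 and 2, 3 and 4, 5 and 6, 7 and 8) were more alike than other libraries of their group, with a chi-square per gene of 3.197 to 5.46 against 5.58 to 12.3. The study describes the libraries as biological replicates and the labels name no animals. Because of this likeness the comparisons were also run with neighbours summed, which leaves 2 samples in each group. For the members and the other axonemal genes the outcome is given where calls were lost. The choroid plexus markers were unevenly spread over these libraries, with a summed level of 1133 and 1155 CPM in WT 1 and 2 and of 389 and 390.4 CPM in KO 7 and 8, against 21.6 to 28.0 CPM in the other 4. In testes, KO 7 and KO 8 stood apart from KO 5 and 6, with a chi-square per gene of 20.3 to 31.02 between them and 3.39 between KO 5 and 6, and results that rest on them are given with and without them.

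Promoters of a few members are shown because the levels that follow divide these genes by tissue, and because Rfx factors are known to bind an element called the X-box in promoters of cilia genes. Each is the window from 250 bases before to 50 bases after the start of a transcript, read 5′ to 3′ on the strand of the gene, from RefSeq on build GRCm38.p6. The X-box was searched on both strands as GTNNCC, 0 to 3 bases of any kind, and NGNAAC, and matches are in capitals. Dnah9 and Dnah11 serve motile cilia, Dnah17 and Cfap206 were among the genes highest in testes relative to cerebellum, and Cfap44 differed 3.84 times between the lowest and the highest cerebellum library.
Dnah11 (chr12:118198994-118199293, minus strand): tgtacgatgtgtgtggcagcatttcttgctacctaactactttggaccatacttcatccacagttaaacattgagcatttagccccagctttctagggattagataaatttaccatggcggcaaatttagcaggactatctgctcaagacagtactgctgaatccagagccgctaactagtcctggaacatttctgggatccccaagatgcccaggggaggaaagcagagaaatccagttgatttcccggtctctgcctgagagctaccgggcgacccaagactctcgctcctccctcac
Dnah9 (chr11:66168502-66168801, minus strand): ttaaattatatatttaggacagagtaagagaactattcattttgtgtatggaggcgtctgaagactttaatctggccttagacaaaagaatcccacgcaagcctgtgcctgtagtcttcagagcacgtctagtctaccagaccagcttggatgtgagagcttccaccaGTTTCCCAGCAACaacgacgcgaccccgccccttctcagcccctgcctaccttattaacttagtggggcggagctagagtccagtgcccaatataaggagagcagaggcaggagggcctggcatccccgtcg
Dnah17 (chr11:118129170-118129469, minus strand): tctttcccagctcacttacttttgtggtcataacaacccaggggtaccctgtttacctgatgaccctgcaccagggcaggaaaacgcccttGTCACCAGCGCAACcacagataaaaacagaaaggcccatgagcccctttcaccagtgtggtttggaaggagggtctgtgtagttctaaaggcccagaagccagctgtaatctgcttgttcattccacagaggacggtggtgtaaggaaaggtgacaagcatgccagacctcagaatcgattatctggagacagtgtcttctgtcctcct
Cfap206 (chr4:34730157-34730456, minus strand): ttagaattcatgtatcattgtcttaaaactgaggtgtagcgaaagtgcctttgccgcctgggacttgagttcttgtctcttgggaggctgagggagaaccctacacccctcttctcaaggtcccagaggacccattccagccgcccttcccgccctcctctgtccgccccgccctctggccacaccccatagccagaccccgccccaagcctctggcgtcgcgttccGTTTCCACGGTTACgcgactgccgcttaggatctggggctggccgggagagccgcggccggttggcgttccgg
Cfap44 (chr16:44394549-44394848, plus strand): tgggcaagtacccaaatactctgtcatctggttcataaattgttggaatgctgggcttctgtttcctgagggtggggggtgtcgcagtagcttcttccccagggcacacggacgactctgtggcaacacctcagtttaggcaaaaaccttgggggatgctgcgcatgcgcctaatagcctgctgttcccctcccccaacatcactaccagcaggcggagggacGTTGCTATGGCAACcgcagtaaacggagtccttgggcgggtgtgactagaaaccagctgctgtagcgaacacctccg
The Dnah9, Dnah17, Cfap206 and Cfap44 windows each hold a match, and the Dnah11 window holds no match. Of the 36 members with a promoter in the RefSeq table, 9 held a match (25.0%), against 5.94% of the 27025 genes with a promoter in that table. These were 2 of 14 Dnah genes and 7 of 22 Cfap genes. A match of letters is a description of the window and not a binding site.

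In WT testes every member was expressed. All 44 had a mean of at least 1 CPM and 24 had at least 100 CPM. In WT cerebellum 25 reached 1 CPM and a single gene, Dnah11, exceeded 100 CPM. In WT liver 5 reached 1 CPM, namely Cfap20, Cfap36, Cfap54, Cfap97 and Cfap298, and 12 had no count in any of the 4 libraries. No Dnah gene reached 1 CPM in liver. Summed over the 44 genes, the level was 11202 to 11767 CPM in WT testes, 319 to 349 CPM in WT cerebellum and 32.4 to 37.6 CPM in WT liver. Divided by exonic length, which allows genes to be compared, the median member stood at 22.2 CPM per kb in WT testes, 0.255 in WT cerebellum and 0.00644 in WT liver. In a tissue sample a higher level from more cells of a type cannot be told apart from more RNA in each cell.

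**Figure D1:**
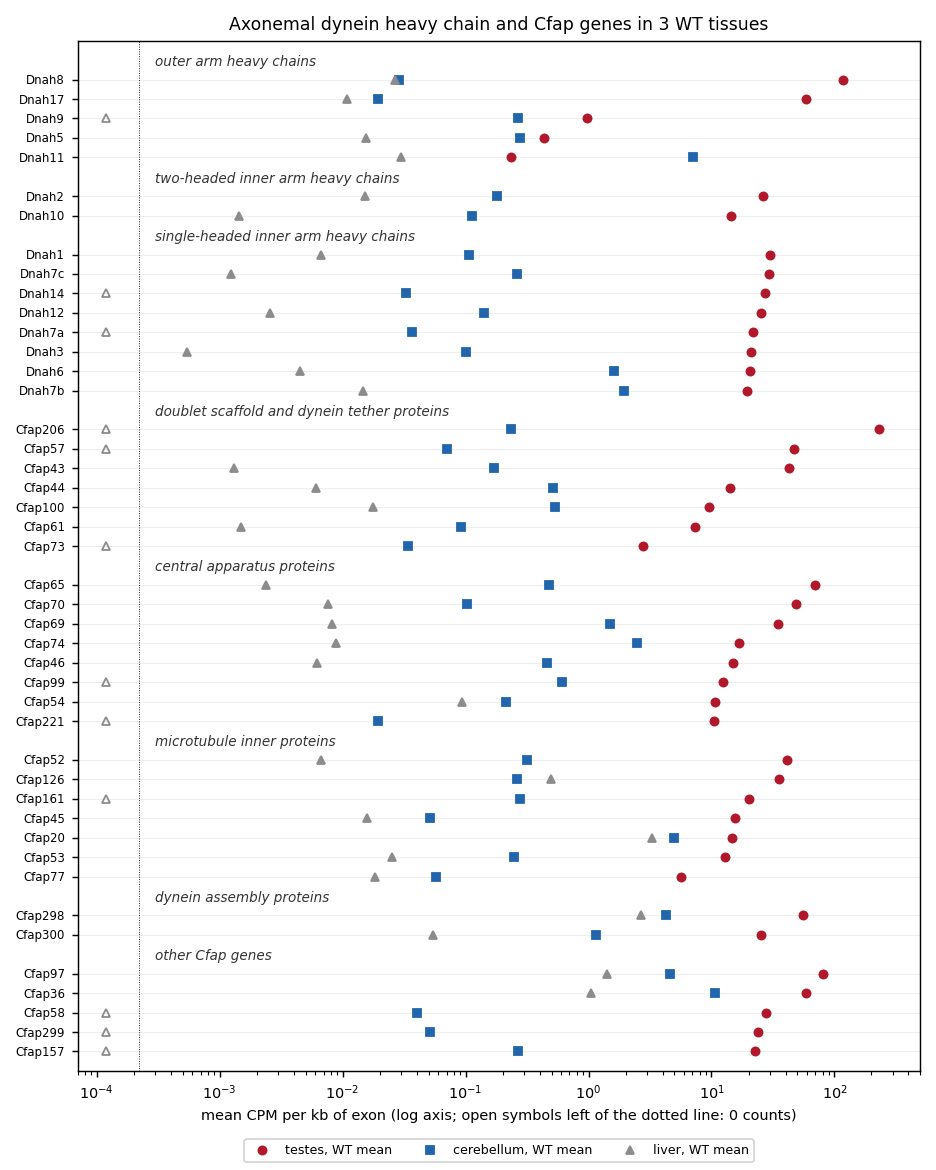
Mean level of the 44 genes in WT testes, cerebellum and liver (4 libraries each), in CPM per kb of exon on a log axis, with genes grouped by the role of their protein and open symbols for 0 counts. All genes but Dnah11 lie furthest to the right in testes, and Dnah11 stands at 7.13 CPM per kb in cerebellum against 0.233 in testes.

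The outer arm heavy chains are known in sperm and cilium forms, and in WT testes the sperm forms were far above the cilium forms. Between the tissues, Dnah11 alone of the cilium forms was higher in cerebellum than in testes. Dnah8 (chr17:30624354-30877365, plus strand, mm10), the sperm chain of the Dnah5 type, stood at 117 CPM per kb in WT testes, 0.0287 in WT cerebellum and 0.0269 in WT liver. Dnah17 (chr11:118021723-118130634, minus strand), the sperm chain of the Dnah9 and Dnah11 type, followed with 58.2, 0.0194 and 0.0108 CPM per kb. The 3 cilium chains were the lowest members of all in testes, with Dnah9 (chr11:65831282-66168551, minus strand) at 0.967 CPM per kb, Dnah5 (chr15:28203752-28472052, plus strand) at 0.438 and Dnah11 (chr12:117877982-118199043, minus strand) at 0.233. In WT cerebellum Dnah5 and Dnah9 had similar levels per length, 0.277 ± 0.0141 and 0.267 ± 0.125 CPM per kb (SD, n = 4), a difference smaller than the spread of Dnah9. Dnah11 stood far above both at 7.13 ± 0.170 CPM per kb.

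Dnah11 ran against every other member. Its level in WT cerebellum was 103, 100.2, 103 and 106 CPM in the 4 libraries, and in WT testes 3.74, 3.29, 3.54 and 2.89 CPM. The ranges lie far apart and no cerebellum library came near a testis library. In WT liver it stood at 0.433 ± 0.0961 CPM (SD, n = 4). Its exons overlap those of Cdca7l, which lies on the opposite strand, by 642 of 14458 bases (4.44%), and Cdca7l itself stood at 12.0 CPM in WT testes and 0.372 CPM in WT cerebellum, the reverse order.

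**Figure D2:**
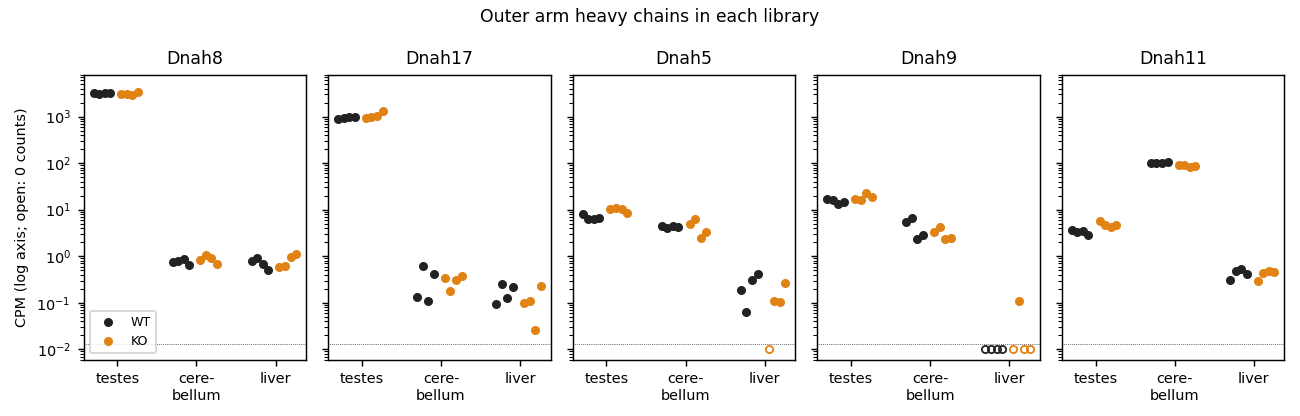
Level of the 5 outer arm heavy chains in every library, in CPM on a log axis, with WT and KO side by side in each tissue and open symbols for 0 counts. Dnah8 and Dnah17 are high in testes alone, Dnah11 is near 100 CPM in cerebellum and under 6 CPM in testes, and in testes every KO point of Dnah5 and Dnah11 lies above every WT point.

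The inner arm heavy chains were closer to each other. In WT testes Dnah1, Dnah7c, Dnah14, Dnah2, Dnah12, Dnah7a, Dnah3, Dnah6, Dnah7b and Dnah10 stood, in this order, between 29.8 and 14.5 CPM per kb. In WT cerebellum Dnah7b and Dnah6 led them with 1.94 ± 0.0793 and 1.62 ± 0.168 CPM per kb (SD, n = 4), and the rest lay at 0.264 (Dnah7c), 0.182 (Dnah2), 0.141 (Dnah12), 0.112 (Dnah10), 0.106 (Dnah1), 0.101 (Dnah3), 0.0369 (Dnah7a) and 0.0325 (Dnah14). The Dnah7 genes are close copies, and 7.48 to 16.5% of the 100-base windows of each occur in another of them, so that part of their counts rests on how reads were assigned between them. In WT liver none of the 10 exceeded 0.0152 CPM per kb.

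The Cfap genes spread more widely. Cfap206, a protein of the radial spoke region, was the highest member in WT testes at 229 CPM per kb, with Cfap97 at 80.6 and Cfap65, a protein of the central apparatus, at 69.9. In WT cerebellum the highest members were Cfap36 at 10.7 CPM per kb, Dnah11, Cfap20 at 4.92, Cfap97 at 4.61 and Cfap298, a factor in dynein arm assembly, at 4.28. Exons of Cfap298 overlap those of 4930534H18Rik on the opposite strand over 53.6% of their length, a gene at 5.78 CPM in WT testes and 0.0337 CPM in WT cerebellum. Of these 5, the 4 Cfap genes were also above 1 CPM in liver, where Dnah11 was not. Cfap74, a protein of the central apparatus, stood at 2.49 CPM per kb in cerebellum and 0.00880 in liver.

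WT testes and WT cerebellum were compared to see how the members differ between a tissue that builds flagella and one that holds ciliated cells among others. Which cells of the cerebellum carried a member was not tested. Every member passed the filter on low counts, and 43 were higher in testes and 1, Dnah11, was lower (limma-voom, adjusted p under 0.05). The filter asks for 1 CPM in any 4 of the 24 libraries, and 19 members met it through testes alone, so that their direction was fixed by the filter. Of the 25 members that met it in the cerebellum libraries 24 were higher in testes and 1 lower, with a median log2 difference of 4.70. Such a count is common between these tissues, since 89.3% of the 22678 genes tested passed the same threshold, 50.7% as higher and 38.5% as lower in testes. The median log2 difference of the members was 6.88, beside 0.40 over all genes tested. It pools these 25 members with the 19 that met the filter through testes alone, whose median was 9.17. By role the median was 7.85 for the monomeric inner arm chains, 7.35 for Dnah2 and Dnah10 and 7.43 for the proteins inside the doublets. It was 6.63 for the scaffold and tether proteins, 5.59 for the central apparatus and 2.18 for the outer arm chains. The outer arm chains ran from -4.68 to 12.22. The roles mix both sets unevenly. In cerebellum 2 of 7 proteins inside the doublets met the filter, and 6 of 8 monomeric chains and 6 of 8 central apparatus proteins. The order of the roles can therefore not be told apart from this selection.

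The sperm outer arm chains led, with log2 differences of 12.22 ± 0.24 (SE, limma adjusted p = 1.87e-22, but 0.373 without a filter on low counts) for Dnah8 and 12.02 ± 0.45 (adjusted p = 3.47e-17) for Dnah17. They were followed by Cfap206 at 10.56 ± 0.38, Dnah14 at 10.005 ± 0.27, Cfap57, an adapter of the dimeric inner arm, at 9.55 ± 0.23, Cfap58 at 9.45 ± 0.36, and Dnah7a and Cfap221, a protein of the central apparatus, both at 9.41. All of these genes met the filter through testes alone, so that their direction was fixed by the filter and their p-values do not test it. The denominators were small: Cfap221 had 5 counts over the 4 WT cerebellum libraries, and 19 of the 44 members had fewer than 100. At the other end stood Dnah11 at -4.68 ± 0.10 (adjusted p = 7.00e-22). The smallest positive differences were those of Dnah5 at 0.92 ± 0.35 (adjusted p = 0.0185), Cfap20 at 1.83 ± 0.07, Dnah9 at 2.18 ± 0.37, Cfap36 at 2.72 ± 0.13, Cfap74 at 3.01 ± 0.22, Dnah7b at 3.57 ± 0.09 and Dnah6 at 3.92 ± 0.19. Dnah5 stood at 6.85 ± 0.724 CPM in testes and 4.34 ± 0.221 CPM in cerebellum (SD, n = 4), and its call was lost with quantile normalization (log2 difference 0.44, adjusted p = 0.321). Quantile normalization also moved the median of all genes from 0.40 to -0.28 and the split of all calls from 11509 higher and 8742 lower to 9588 higher and 11099 lower, and the directions of the members were the same.

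The other axonemal genes followed the same order. Of 70 genes of the smaller arm chains, arm docking and assembly, the nexin-dynein regulatory complex, the radial spokes and central pair, and the regulators of multiciliated cells that were tested, 66 were higher in WT testes and 3 lower, where 50.7% of all genes were higher and 38.5% lower. Within testes 68 of these genes met the filter and within cerebellum only 36. For those that met it through testes alone the direction was fixed by the filter. The 3 were Trp73 (-4.45 ± 0.34), a regulator of multiciliated cell formation, Rfx3 (-0.62 ± 0.06) and Dnal1 (-0.48 ± 0.05), a dynein light chain, and they were chosen after their values were seen.

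WT cerebellum was set against WT liver, an organ with few motile cilia, to separate cilia genes seen in cerebellum from those with a level in any tissue. Of the 44 members 33 were higher in cerebellum and 4 lower (limma-voom, adjusted p under 0.05), where 85.3% of all genes tested passed, 42.5% as higher and 42.9% as lower. All 44 were tested because they are high in testes, which is not part of this comparison. Of the 25 that also met the filter in cerebellum 22 were higher there and 2 lower, while of the 19 that met it through testes alone 11 were higher and 2, Cfap126 and Dnah8, lower. In liver 5 members met the filter, and of these 2 were higher in cerebellum and 2 lower. Members that met it in cerebellum and not in liver were selected where they are high, so that their direction was largely set by the filter. A fit of the 8 WT libraries alone tested 21 members, with 18 higher and 2 lower, under the same limit. The median log2 difference over all 44 was 3.43, and 3.72 with the 12 members at 0 in WT liver placed at the bound that 3 counts over the group give, beside -0.04 for all genes. It ran from 1.91 with quantile normalization to 4.48 with edgeR over fits of the same 44 genes. Dnah6 led at 7.63 ± 0.41 (adjusted p = 4.68e-14), followed by Cfap74 at 6.85 ± 0.54, Dnah11 at 6.67 ± 0.16 and Cfap69, a protein of the central apparatus, at 6.14 ± 0.48. Liver counts behind these were few, with 7 for Dnah6, 11 for Cfap74, 53 for Dnah11 and 8 for Cfap69 over the 4 WT libraries, and the Dnah6 difference ran from 6.18 to 8.22 over all alternatives. Dnah9 had no count in any WT liver library and is given no place in this order, and its level in cerebellum was at least 182-fold higher.

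The lower members were Cfap126 (-2.37 ± 0.40), a protein inside the doublets, Dnah8 (-1.07 ± 0.33), Cfap20 (-0.61 ± 0.08) and Cfap298 (-0.51 ± 0.18). Without a filter on low counts Dnah8 (adjusted p = 0.956) and Cfap298 (adjusted p = 0.112) did not pass. Only Cfap126 was also lower on plain CPM, at 0.467 ± 0.337 CPM in cerebellum and 0.886 ± 0.244 in liver (SD, n = 4). For the other 3 the direction flips on that scale, with Cfap20 at 21.9 CPM in cerebellum and 14.6 in liver, Cfap298 at 6.80 and 4.28, and Dnah8 at 0.770 and 0.721. Over the 44 members, 43 had a higher mean CPM in cerebellum. Not past the threshold were Cfap45, Cfap54, Cfap73, Cfap77, Cfap221, Cfap299 and Dnah17.

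Library by library, the members seen in cerebellum fell into steady and variable genes. Among the 25 that passed the filter in cerebellum, 10 differed by less than 1.5 times between the lowest and the highest of the 8 libraries. These were Dnah6, Dnah7b, Dnah11, Cfap20, Cfap36, Cfap69, Cfap74, Cfap97, Cfap298 and Cfap300. A further 11 differed by 2 times or more, namely Dnah1, Dnah2, Dnah3, Dnah5, Dnah9, Dnah10, Dnah12, Cfap44, Cfap54, Cfap65 and Cfap99, and 4 lay between. The groups were formed from these values, so that what follows is a description. Low counts widen such ratios: the highest level of any variable gene was 7.32 CPM, reached by Cfap44, and the steady genes included the highest members.

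Most of the variable genes followed a common order. Summed over the 11 genes, the level was 39.1 and 37.4 CPM in WT 1 and 2, 22.9 and 21.3 in WT 3 and 4, 29.9 and 31.1 in KO 5 and 6, and 15.6 and 16.8 in KO 7 and 8. The 10 steady genes summed to 280 to 287 CPM in WT and 250 to 266 CPM in KO. Of the 11 variable genes, WT 1 and 2 both lay above WT 3 and 4 in 8, and KO 5 and 6 both lay above KO 7 and 8 in 10. The exceptions were Dnah1, Dnah5 and Cfap99 in WT and Cfap99 in KO. Of the 10 steady genes the same held for 5 and 3.

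Cfap44, a tether of the dimeric inner arm, gives the clearest case in WT, with 7.32 and 5.86 CPM in WT 1 and 2, 1.91 and 2.24 in WT 3 and 4, 3.28 and 3.36 in KO 5 and 6, and 2.66 and 2.42 in KO 7 and 8. Dnah3 differed most over all libraries, with 1.78, 1.82, 0.926 and 1.27 CPM in WT 1 to 4 and 2.21, 1.957, 0.307 and 0.790 CPM in KO 5 to 8. The order of the neighbours is the same for both genes within each genotype.

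Foxj1 followed the same order, with 10.4 and 10.1 CPM in WT 1 and 2, 5.17 and 4.90 in WT 3 and 4, 7.07 and 7.15 in KO 5 and 6, and 4.29 and 4.79 in KO 7 and 8. Rfx3 did not, with 101, 99.6, 96.9 and 104 CPM in WT 1 to 4 and 80.9, 95.3, 77.8 and 89.3 CPM in KO 5 to 8, nor did Rfx2, at 4.04 to 6.37 CPM. Ttr, the most abundant transcript of the choroid plexus, did not follow it: it stood at 935 and 962 CPM in WT 1 and 2, 1.09 and 0.816 in WT 3 and 4, 1.87 and 1.957 in KO 5 and 6, and 317 and 312 in KO 7 and 8. KO 5 and 6, with the fewest Ttr transcripts of the KO libraries, held the higher level of the variable cilia genes. The 10 ependyma markers, a list that holds Foxj1, summed to 27.2 and 25.2 CPM in WT 1 and 2, 19.5 and 18.1 in WT 3 and 4, 22.7 and 23.1 in KO 5 and 6, and 19.1 and 20.5 in KO 7 and 8. The 9 markers other than Foxj1 summed to 16.8, 15.0, 14.4 and 13.2 CPM in WT 1 to 4 and to 15.7, 15.96, 14.8 and 15.7 CPM in KO 5 to 8, where KO 8 was level with KO 5. Of the 10 markers, Ccdc153 stood at 0.563, 0.687, 0.599 and 0.459 CPM in WT and 0.679, 0.673, 0.0511 and 0.158 CPM in KO, and Tmem212 at 0.433, 0.283, 0.218 and 0.459 CPM in WT and 0.622, 0.673, 0.0511 and 0.368 CPM in KO. Both followed the order of the variable genes in KO and not in WT, but both were under 1 CPM in every library, where a few counts can set the order. Which cells carried the variable genes or the steady genes was not tested.

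**Figure D3:**
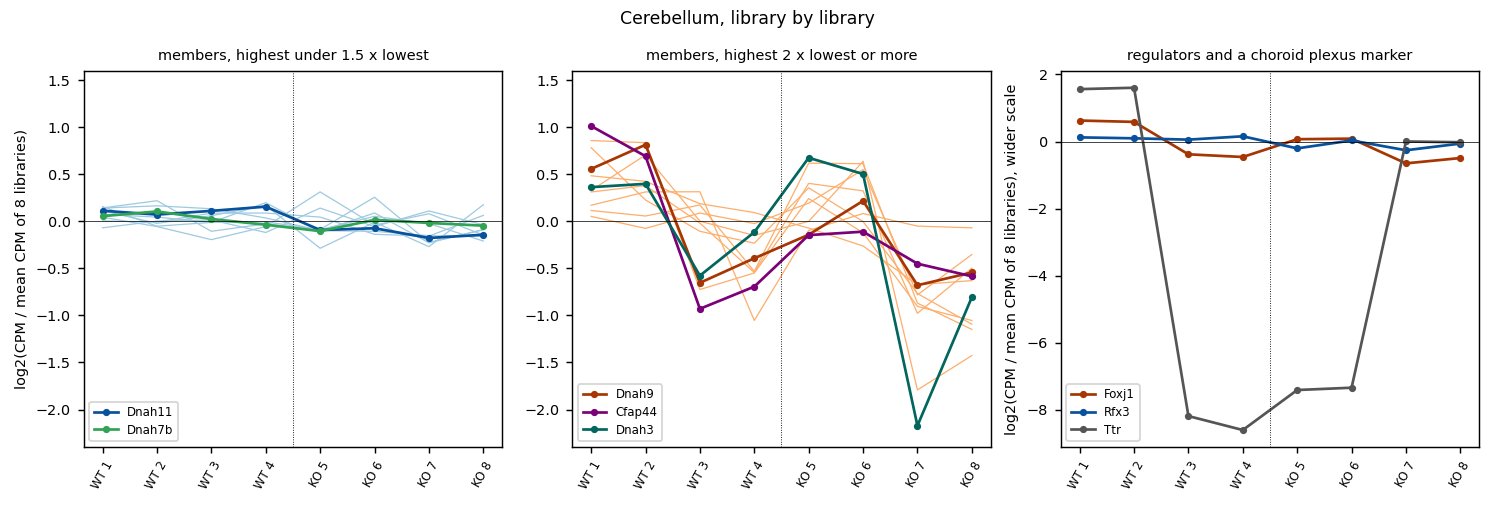
Level in the 8 cerebellum libraries relative to their mean, as log2(CPM / mean CPM), for the steady members, the variable members and, on a wider scale, Foxj1, Rfx3 and Ttr. Most variable members (8 of 11 in WT, 10 of 11 in KO) and Foxj1 are higher in WT 1 and 2 than in WT 3 and 4 and higher in KO 5 and 6 than in KO 7 and 8, while Ttr is high in WT 1 and 2 and in KO 7 and 8.

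The loss of Thumpd1 moved few members in testes. All 44 were tested, and 2 rose and 3 fell in KO (limma-voom, adjusted p under 0.05), which is 11.4% of the members where 20.5% of all 19329 genes tested passed, 9.74% as higher and 10.7% as lower. The median log2 difference of the members was -0.03, beside 0.00 for all genes, and lay at -0.10 with TMM normalization, edgeR or DESeq2 and at -0.11 in the single fit of 24 libraries, beside 0.01 for all genes. Negative were 29 of the 44, and 38 or 39 in these other fits. The balance turned without KO 7, with 18 negative and a median of 0.01, and without KO 7 and 8, with 13 negative and a median of 0.03. At an unadjusted p under 0.05 there were 10, of which 4 were higher and 6 lower.

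The cilium outer arm chains Dnah5 and Dnah11 rose. Dnah5 stood at 7.91, 6.36, 6.42 and 6.72 CPM in WT testes and 10.1, 10.7, 10.5 and 8.30 CPM in KO testes, a log2 difference of 0.42 ± 0.10 (SE, limma adjusted p = 0.0177). Dnah11 stood at 3.74, 3.29, 3.54 and 2.89 CPM in WT and 5.60, 4.80, 4.18 and 4.70 CPM in KO, a log2 difference of 0.40 ± 0.13 (adjusted p = 0.0478). In both genes every KO library lay above every WT library, as was so for 18.8% of all genes tested, and no other member did so. Cdca7l, which overlaps Dnah11, went the other way, with means of 12.0 CPM in WT and 8.29 CPM in KO. Dnah9, the third cilium chain, stood at 15.4 ± 1.57 CPM in WT and 18.8 ± 2.96 in KO (SD, n = 4), and Dnah17 at 939 ± 29.5 and 1056 ± 167 CPM, and neither passed.

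The genes that fell were Cfap126, Cfap300 and Cfap221. Cfap126 (chr1:171113918-171126967, plus strand), also called Flattop, stood at 61.8, 63.3, 63.0 and 64.4 CPM in WT and 55.9, 56.6, 46.2 and 49.5 CPM in KO, a log2 difference of -0.34 ± 0.08 (SE, limma adjusted p = 0.0145). Cfap300 (chr9:8021672-8042823, minus strand), which takes part in arm assembly, stood at 41.0, 39.6, 40.1 and 39.1 CPM in WT and 38.1, 38.6, 33.9 and 31.4 CPM in KO (-0.26 ± 0.08, adjusted p = 0.0397). For both genes, and for Cfap99, which was not called, every KO library lay below every WT library, as was so for 9.8% of all genes tested. Cfap221 (chr1:119923341-119997234, minus strand) stood at 32.2, 30.1, 30.02 and 29.3 CPM in WT and 29.4, 28.7, 25.2 and 26.5 CPM in KO (-0.24 ± 0.08, adjusted p = 0.0448), and its groups overlapped. Cfap61, of the radial spoke region, was next by p-value at -0.15 ± 0.06 (adjusted p = 0.0937).

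These calls were close to the threshold. With WT 4 left out none of the 5 passed. With neighbouring libraries summed none passed either, in a fit that called only 2 of all 19425 genes, and the log2 differences were 0.43 for Dnah5, 0.41 for Dnah11, -0.35 for Cfap126, -0.26 for Cfap300 and -0.24 for Cfap221. With KO 7 and 8 left out, 4 members rose (Dnah5, Dnah11, Cfap36 and Cfap45) and 2 fell (Cfap126 and Dnah1). That fit called 1803 of all 19329 genes tested as higher and 1827 as lower.

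**Figure D4:**
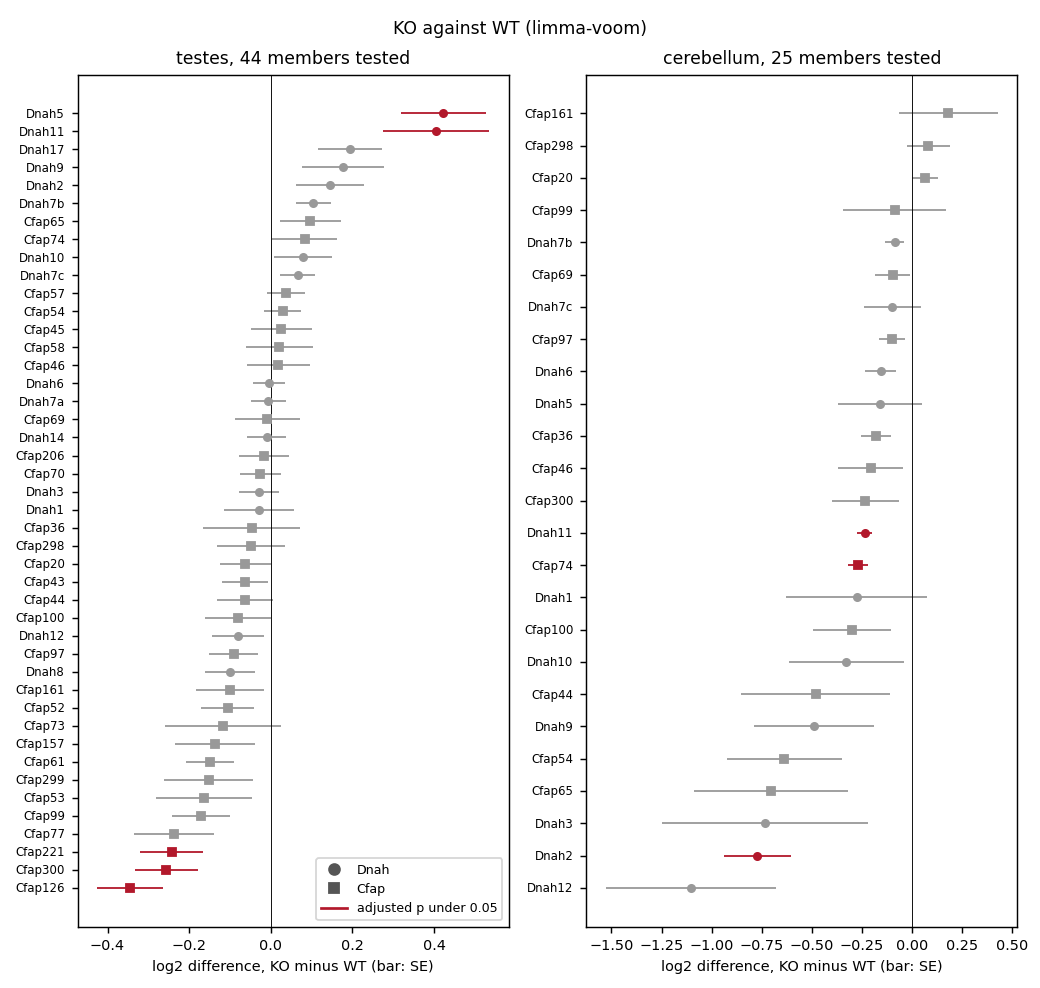
Log2 difference between KO and WT with its SE for each member tested in testes (44) and cerebellum (25), with circles for Dnah genes, squares for Cfap genes and red for an adjusted p under 0.05. In testes the points lie on both sides of 0 with 5 in red, and in cerebellum 22 of 25 lie below 0 with 3 in red.

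Within the KO testes the libraries were unlike each other. KO 7 lay below all 4 WT libraries in 35 of the 44 members, among them 28 of the 29 Cfap genes, and KO 8 did so in 20 members while lying above all WT libraries in 14, of which 9 were Dnah genes. Over all 19329 genes tested, KO 7 lay below all WT libraries in 30.3%, and KO 8 below in 29.8% and above in 42.7%. KO 5 and KO 6 both lay below all WT libraries in 7 members and both above in 12, as they did in 15.9% and 29.8% of all genes. The difference between the families is also one of length, since Dnah transcripts are long. Over the 44 members, Spearman's rho between exonic length and the log2 ratio to the WT mean was 0.69 in KO 7 and 0.60 in KO 8, and -0.12 and 0.03 in KO 5 and KO 6. Over all 19329 genes tested it was 0.33, 0.40, 0.11 and 0.15 in these 4 libraries. The points of each of these correlations share a library and the WT mean.

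In KO 7 the median log2 ratio was -0.08 for the 17 members of 10 kb or more and -0.27 for the 13 under 3 kb, and in KO 8 it was 0.06 and -0.19. With the trend on length removed from each library, no member was higher in KO and 5 were lower, namely Cfap126, Cfap61, Dnah3, Dnah6 and Dnah8. In that fit 1490 of all 19329 genes tested were higher and 1846 lower. The Dnah5 and Dnah11 differences were then 0.26 (adjusted p = 0.135) and 0.25 (adjusted p = 0.233).

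**Figure D5:**
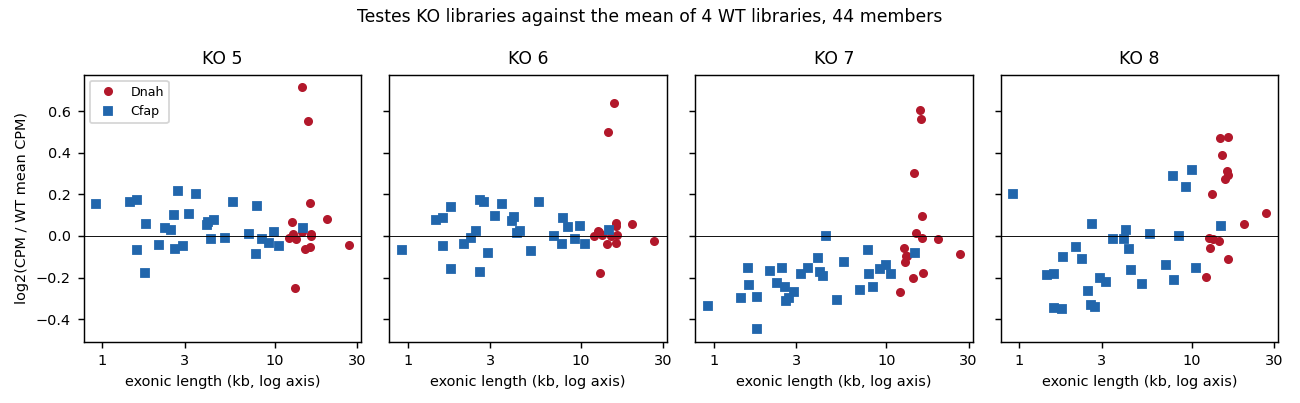
Log2 ratio of each of the 44 members to its WT mean against exonic length in kb (log axis), with a panel for each testes KO library. In KO 7 and KO 8 the short genes lie lower than the long ones, and in KO 5 and KO 6 the short and long genes are centred near 0, with Dnah5 and Dnah11 well above it.

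Markers of testis cells also moved in KO testes, in all 4 KO libraries for the Sertoli cell and elongating spermatid sums. Of 13 Sertoli cell markers tested 10 rose, and their sum was 1299 to 1485 CPM in WT and 1686 to 2385 CPM in KO. Of 13 elongating spermatid markers 6 fell, with a sum of 19195 to 20085 CPM in WT and 14623 to 17850 CPM in KO, and of 13 round spermatid markers 3 fell, with a sum of 1862 to 1881 CPM in WT and 1578 to 1824 CPM in KO. Of 12 spermatocyte markers 1 fell and of 11 spermatogonial markers 2 rose. Over all genes tested 9.74% were higher and 10.7% lower. With neighbouring libraries summed only 2 of all 19425 genes were called, so nearly all of these marker calls were lost. None of the round or elongating spermatid markers was at 0 in any testis library. The part of these cell types in the changes of Dnah and Cfap genes was not tested.

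None of the other axonemal genes rose in KO testes. Of 68 tested 15 fell (22.1%), where 10.7% of all genes tested were lower and 9.74% higher, and 60 had a negative log2 difference. Radial spoke and central pair genes held the largest falls, with Rsph14 at -0.72 ± 0.09 (SE, limma adjusted p = 0.00177), Rsph9 at -0.40 ± 0.07 and Dnajb13 at -0.32 ± 0.06 among 5 of 20. Of 18 docking and assembly genes 6 fell, among them Dnaaf3 (-0.31 ± 0.06), Pih1d1 (-0.30 ± 0.07) and Zmynd10 (-0.18 ± 0.05), which help dynein arms to assemble before they enter the cilium. Wdr78, an intermediate chain of the dimeric inner arm, fell by 0.23 on the log2 scale, Fbxl13 of the nexin-dynein regulatory complex by 0.25, Foxj1 by 0.23 and Rfx3 by 0.18. No filter on low counts gave 7 falls of 74 genes and DESeq2 22 of 68. Without KO 7 and 8, 10 fell and 6 rose, where 1827 of all 19329 genes tested fell and 1803 rose. With neighbouring libraries summed none passed, in the fit that called 2 genes in all.

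In cerebellum 25 members were tested, and none rose and 3 fell in KO. These are 12% of the members, where 6.44% of all 16225 genes tested passed, 3.93% as higher and 2.51% as lower. No member was higher at an unadjusted p under 0.05 either, nor with edgeR, DESeq2 or TMM normalization, and 6 were lower at that level. The median log2 difference was -0.23, beside -0.01 for all genes, and 22 of the 25 were negative. Among WT 3 and 4 and KO 5 and 6 alone, the libraries with few choroid plexus transcripts, the median of the same 25 genes was 0.11 and 8 were negative, so the general direction turned in that set. Without KO 7 the median was -0.13.

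Dnah11, the most abundant of the 15 Dnah genes in cerebellum, fell from 103, 100.2, 103 and 106 CPM in WT to 89.4, 90.6, 84.3 and 86.3 CPM in KO, a log2 difference of -0.24 ± 0.04 (SE, limma adjusted p = 0.00317). Cfap74 (chr4:155409190-155466823, plus strand) stood at 25.2, 25.6, 25.0 and 23.4 CPM in WT and 21.3, 21.2, 20.5 and 20.5 CPM in KO (-0.27 ± 0.05, adjusted p = 0.0108). Dnah2 (chr11:69420809-69549110, minus strand) stood at 3.08, 2.95, 2.50 and 2.35 CPM in WT and 2.09, 1.83, 1.38 and 1.42 CPM in KO (-0.77 ± 0.17, adjusted p = 0.0193). In all 3 genes every KO library lay below every WT library, as was so for 4.99% of all genes tested. No member tested had all KO libraries above WT, where 8.79% of all genes did.

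Next by p-value came Dnah12 at -1.10 ± 0.43 (adjusted p = 0.137), Cfap36 at -0.18 ± 0.07 (adjusted p = 0.163) and Cfap54 at -0.64 ± 0.29 (adjusted p = 0.192), none past the threshold. Dnah12 and Cfap54 belong to the genes that varied between the pairs of neighbouring libraries, and in the set of libraries with few choroid plexus transcripts their direction was reversed, as it was for other members. Dnah11, Cfap74 and Dnah2 were lower in KO in that set too, at -0.22, -0.22 and -0.41, and did not pass with 2 libraries in each group (adjusted p = 0.0743, 0.227 and 0.412). With neighbouring libraries summed they did not pass either (-0.23, -0.27 and -0.79, adjusted p = 0.0979, 0.136 and 0.158), in a fit that called 47 of all 16272 genes. With the choroid plexus sum as a covariate 3 members fell, and in the single fit of 24 libraries Dnah11 alone did, with Cfap74 (-0.28, adjusted p = 0.821) and Dnah2 (-0.74, adjusted p = 0.559) not past the threshold. That single fit called only 195 of all 22678 genes. The Dnah2 call was lost without WT 1, KO 7 or KO 8 (adjusted p up to 0.0654).

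Of 9 granule cell markers 4 fell in KO cerebellum, namely Zic1 (-0.21), Gabra6 (-0.26), Neurod1 (-0.22) and Etv1 (-0.20), while the other 5 ran from -0.06 to 0.04 with 4 of them positive and the median of the 9 was -0.06, and the sum of all 9 was 6389 to 6640 CPM in WT and 5890 to 6233 CPM in KO. Over all genes tested 3.93% rose and 2.51% fell. Of 9 Purkinje cell markers 2 rose. Of 5 midbrain and forebrain markers tested 2 rose, Nrgn by 3.42 and Th by 0.46 on the log2 scale, and the sum of the list was 14.9 to 15.8 CPM in WT and 30.2 to 49.98 CPM in KO. These marker calls are from the fit of 8 libraries and are not given with neighbouring libraries summed, a fit that called 47 of all 16272 genes. The part of these cells, or of the piece of tissue taken, in the fall of Dnah11, Cfap74 and Dnah2 was not tested.

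Among 36 other axonemal genes tested in cerebellum 1 rose and 3 fell (11.1%), where 3.93% of all genes tested rose and 2.51% fell. Hydin, a large protein of the central apparatus, rose from 7.85 to 8.22 CPM in WT to 11.0 to 12.7 CPM in KO (0.52 ± 0.08, limma adjusted p = 0.00217). Wdr78 (-0.59 ± 0.12), Ccdc39 (-0.41 ± 0.10), which sets the repeat of the arms along the doublet, and Rfx3 (-0.23 ± 0.06) fell. With neighbouring libraries summed none of the 4 passed, nor with WT 3 and 4 against KO 5 and 6 alone. In the single fit of 24 libraries, which called 195 of all 22678 genes, no axonemal gene passed as higher and 1 of 70 as lower.

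In liver 5 members were tested, all Cfap genes, and none passed in limma-voom, where 5.91% of all 12816 genes tested did, 2.79% as higher and 3.12% as lower. Cfap54, a protein of the central apparatus, missed the threshold at 1.10 ± 0.29 (SE, adjusted p = 0.0503). Its levels were 1.74, 1.52, 0.747 and 1.52 CPM in WT and 3.56, 2.20, 2.48 and 3.83 CPM in KO, so every KO library lay above every WT library. This was so for 7.34% of all genes tested, and the reverse, seen in none of the 5 members, for 5.31%. TMM normalization, edgeR and DESeq2 each called this gene alone, with adjusted p = 0.0331, 0.0338 and 0.00151. Cfap20 stood at 0.16 ± 0.07 (adjusted p = 0.203), the other gene at an unadjusted p under 0.05, and Cfap97, Cfap298 and Cfap36 at 0.05, 0.08 and -0.02. Of 15 other axonemal genes tested in liver none passed in limma-voom, and DESeq2 called 1 as lower.

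The KO effect of Dnah11 had opposite signs in testes and cerebellum, and this difference was itself tested. The effect in testes minus that in cerebellum was 0.60 ± 0.13 on the log2 scale (limma-voom, adjusted p = 0.00380), the single member called among 25 tested, where 13.6% of all 13753 genes tested passed, 6.05% as higher and 7.52% as lower. Leaving out each library in turn gave 0.51 to 0.71. With neighbouring libraries summed it was 0.61 and did not pass (adjusted p = 0.156), in a fit that called 27 of all genes. With the replicate number as a block it did not pass either (limma-voom, adjusted p = 0.296). The edgeR and DESeq2 fits called Dnah2 as well. Dnah11 rose where it is a minor transcript, at 3.37 ± 0.366 CPM in WT and 4.82 ± 0.586 in KO testes, and fell where it is abundant, at 103 ± 2.46 and 87.6 ± 2.86 CPM in cerebellum (SD, n = 4).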

How the data were processed

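Total RNA of liver, cerebellum and testes had been depleted of rRNA, made into stranded paired-end libraries and sequenced by the authors, who aligned reads with STAR to mm10 and deposited RSEM expected counts per GENCODE M21 gene. The strand setting of the counting is not given in the sources used here, and 20 of the 44 members overlap exons on the opposite strand. Expected counts were not whole in 12.3 to 16.6% of values above 0 and were rounded for edgeR and DESeq2 only.

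Members were the genes named Dnah or Cfap and a number. The members, the lists of other axonemal genes and cell type markers and the tests were chosen with earlier results of these data known. KO and WT were compared within each tissue with limma-voom after quantile normalization, over genes with at least 1 CPM in at least 4 of 8 libraries, and WT tissues and the difference of KO effects in 1 fit of 24 libraries with TMM (at least 1 CPM in 4 libraries, and for the difference of KO effects only genes that passed in both tissues). Benjamini-Hochberg adjustment was over all genes tested, at 0.05, and tests were 2-sided. Genes were named as the 10 largest rises and falls among called members in each tissue (with fewer than 6 called, also the 6 with the lowest p), the 8 highest and 8 lowest differences between testes and cerebellum, the 5 largest called in each direction between cerebellum and liver, every Dnah gene by level, and up to 3 called genes for each list of axonemal genes and tissue. Other genes named were chosen after their values were seen. CPM is per 1000000 counts of the library, and lengths are the union of exons.

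Alternatives were TMM or quantile normalization, edgeR, DESeq2, other filters, other sample sets, a replicate block and each library left out. Neighbouring libraries summed, a length trend removed, a choroid plexus covariate and subsets of libraries were added after seeing the data. Deviations from the group means of same-numbered libraries of different tissues correlated at -0.155 to 0.160, over 0.1 in 6 of 24 pairs and not in every one, so the numbers were not taken as pairs. The limma-voom fits within each tissue, between WT testes and WT cerebellum and for the difference of KO effects were tested on simulated counts. The other fits and steps were not tested in this way. Versions were R 4.3.3, limma 3.58.1, edgeR 4.0.16, DESeq2 1.42.0, Python 3.11.15, pandas 2.3.3 and matplotlib 3.10.9.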

Additional observations from a re-analysis of the deposited data

Results flagged for a closer look

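In WT testes, library 2 lay below the other 3, which were close together, for 2 of the dynein heavy chains. Dnah8 stood at 2993 CPM in it, with the next library at 3171 and the highest at 3206 CPM, and Dnah14 at 409 CPM, with the next at 449 and the highest at 457 CPM. The gap divided by the range of the group was 0.837 and 0.833, above Dixon's critical value for 4 samples. Chance marks about 1 in 20 groups in this way, and 53 groups were examined.

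The KO effect on Dnah11 differed between tissues, by 0.60 on the log2 scale (limma-voom, adjusted p = 0.00380), with a rise in testes and a fall in cerebellum. It did not pass with the replicate number as a block (0.61, adjusted p = 0.296) or with neighbouring libraries summed (0.61, adjusted p = 0.156).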

How the results depend on the processing

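In KO testes, where 2 members rose and 3 fell, no filter gave 1 and 1, a single fit of 24 libraries gave 1 rise, DESeq2 gave 5 falls, neighbouring libraries summed gave 0 and 0, the length trend removed gave 0 and 5, and KO 5 and 6 alone against WT gave 4 rises. In KO cerebellum, where 3 fell, the single fit gave 1 and both neighbours summed and WT 3 and 4 against KO 5 and 6 gave 0. In that last set Dnah12 (0.26) and Cfap54 (0.25) were higher in KO, opposite to the fit of 8 libraries. In KO liver, where none passed, TMM, edgeR, DESeq2 and the single fit each gave 1 rise, and the single fit 2 falls (Dnah1 and Cfap44). Cfap36 in liver changed sign with TMM (0.0348), edgeR (0.113), DESeq2 (0.118) and neighbours summed (0.0346). Between cerebellum and liver, where 33 were higher and 4 lower, the 8 WT libraries alone gave 18 and 2 of 21 tested, quantile normalization gave 8 lower and no filter 2 lower. The difference of KO effects, with 1 member, gave 2 with edgeR and DESeq2 and 0 with neighbours summed. The causes were not tested.

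Leaving out each library in turn gave 0 to 2 rises and 0 to 3 falls in testes, with fewer rises without WT 1, 2, 3 or 4 or KO 6 or 8 and fewer falls without WT 1, 2, 3 or 4 or KO 7 or 8. It gave 2 to 4 falls in cerebellum, where the lowest count came without WT 1, KO 7 or KO 8, and 1 to 2 members for the difference of KO effects, with 2 without testes KO 5. Between WT tissues it gave 43 higher and 1 lower in testes against cerebellum, and 33 to 34 higher and 4 lower in cerebellum against liver. In liver, leaving out a library changed the sign of Cfap97 (-0.0216 to 0.112), Cfap298 (-0.0311 to 0.211) and Cfap36 (-0.197 to 0.104).

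With the replicate number as a block, the difference of KO effects gave 0 members, and the Dnah5 difference between testes and cerebellum did not pass (0.91, adjusted p = 0.159). The samples share only a number, and no paired analysis was possible within a tissue because WT and KO carry different numbers. Of the single genes under all alternatives, 607 values kept direction and side of the threshold, 58 were no longer past it, 7 were newly past it and 12 changed sign. Depth limits the members with few counts: 19 had fewer than 100 counts over the 4 WT cerebellum libraries and 3 had 10 or fewer.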
